A study of Mus musculus with 9 samples.

Results

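The transcriptome of lymphatic endothelial cells sorted from mouse liver was compared between animals at 2 weeks after bile duct ligation and sham-operated animals. The comparison used the 3 sham and the 3 ligation libraries of 2 weeks by their labels, 6 of the 9 libraries of the series. It covered the 11689 of 21936 genes whose mean over these 6 libraries was at least 10 normalized counts. All mice, sham included, carried the IL7GFP/knock-in reporter, in which green fluorescent protein made from the Il7 locus marks lymphatic endothelium. The ligated group had the duct tied 2 weeks before collection. The sources used here do not state the time from sham surgery to collection, the sorting gate, or the strain, age and sex of the mice. Between 20000 and 50000 sorted cells per sample went into TRIzol, and total RNA was sequenced after removal of ribosomal RNA. The design text counts 3 mice in each group, so the spread between libraries was taken as the spread between mice.

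Ligation of the common bile duct keeps bile from leaving the liver. Bile acids then build up, bile ducts proliferate, hepatocytes make acute-phase proteins, monocytes enter from blood and portal fibroblasts and stellate cells lay down collagen. Lymphatic vessels run in the portal tracts beside bile ducts, veins and arteries, drain interstitial fluid and immune cells, and depend on the transcription factor PROX1 and on the VEGF-C receptor encoded by Flt4. A cell suspension from such tissue can hold macrophages, ductal cells and fibroblasts beside lymphatic endothelium.

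Sham replicate 2 stood apart from the other 5 libraries. It held 592419 whole reads on the genes of the table, against 3324445 and 3717921 in sham replicates 1 and 3 and between 4366401 and 5314381 at 2 weeks. A single read was worth 5.26 normalized counts in it and 0.589 to 0.917 in the others, and 3 reads, the most that a count of 0 allows, were 15.8 normalized counts. Intervals and floors cover counting error only. Prox1 was at 1729, 321 and 2209.6 normalized counts in sham replicates 1 to 3 and 734, 1659 and 994 at 2 weeks. Lyve1, which binds hyaluronan on lymphatic vessels and sinusoids, was at 2732, 605 and 3351 against 1702, 6906 and 5497 and Flt4 at 5616, 883 and 7551 against 2069, 5808 and 3908. These lymphatic genes were lowest in sham replicate 2 and, among the ligated libraries, in 2-week replicate 1. Il7, the reporter locus, was at 63.3, 15.8 and 70.9 against 30.6, 69.2 and 52.8. Sham replicate 2 was the highest or lowest of the 6 libraries for 7883 genes (67.4%), and 2837 genes (24.3%) changed the sign of their fold change when it was left out. The comparison was therefore run with it (3 against 3 libraries) and without it (2 against 3).

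**Figure D1:**
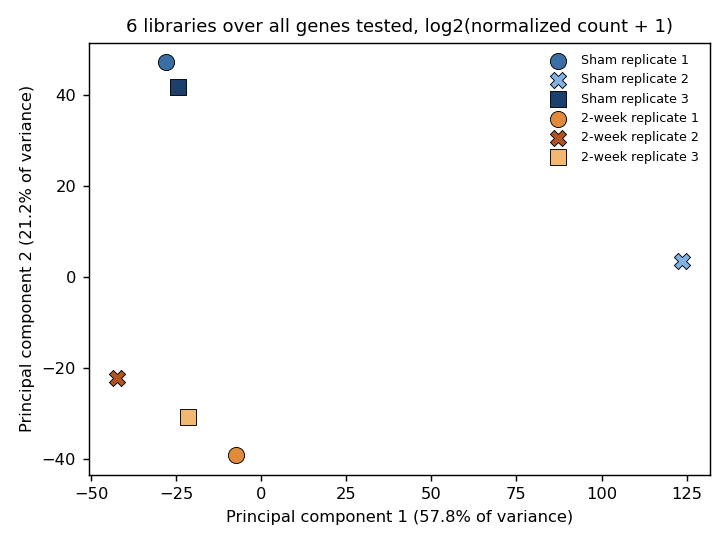
Principal components of log2(normalized count + 1) over the genes tested, 1 point per library, with the share of variance on each axis. Sham replicate 2 lies at 124 on the first component and the other 5 libraries between −42.4 and −7.50; on the second, sham replicates 1 and 3 lie above 0 and the 3 ligated libraries below it.

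Few genes passed. With 3 libraries a side, 1 of 11689 genes passed (limma on log2(normalized count + 1), Benjamini-Hochberg adjusted p below 0.05), which is 0.00856% of the genes tested, and it was higher. No gene passed as lower (0.00%), while 1132 genes (9.68%) had an unadjusted p below 0.05 in limma, 583 lower (4.99%) and 549 higher (4.70%). In edgeR on the recovered reads 1 gene passed as well, and in DESeq2 132 higher and 192 lower genes did. Without sham replicate 2, 52 genes passed in limma (0.445%), of which 37 were higher (0.317%) and 15 lower (0.128%) at 2 weeks. In edgeR without sham replicate 2 there were 15, all among the 52, and in DESeq2 585. Of the 52 genes, 1 also passed with sham replicate 2, all 52 kept their direction with it, and in 45 the sham and ligated libraries still did not overlap. The fits share every library but sham replicate 2, and the 52 were chosen for their separation in the fit without it. Their kept direction was thus likely in advance and is no separate support. Over all genes the groups did not overlap for 2099 (18%) with sham replicate 2 and for 4233 (36.2%) without it. Without it 956 genes (8.18%) were higher and 1078 (9.22%) lower at an unadjusted p below 0.05 in limma. The adjusted p of the other 51 of the 52 genes with sham replicate 2 ranged from 0.101 to 0.685 in limma. The 52 rested on the remaining libraries too. Leaving out sham replicate 1 or sham replicate 3 as well left a single sham library, assumed to vary like the ligated ones. No count of genes is given for these fits. Leaving out a further ligated library gave 4, 158 and 13 genes without 2-week replicates 1, 2 and 3. Of these, 3, 49 and 7 were among the 52. "Passed" below refers to the fit without sham replicate 2 unless it is said otherwise, and log2 fold changes are on the log2(normalized count + 1) scale, 2 weeks minus sham.

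**Figure D2:**
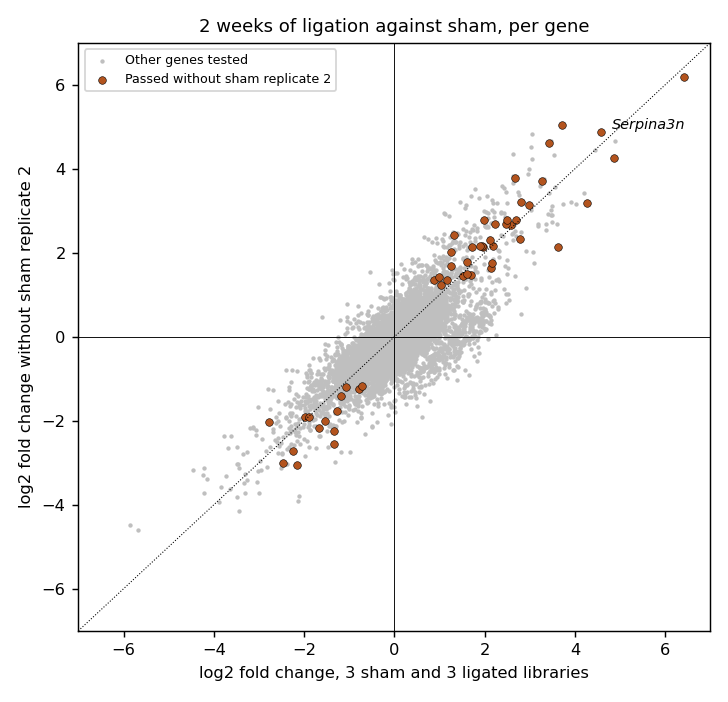
Log2 fold change of each gene tested with all 6 libraries (horizontal) and without sham replicate 2 (vertical), with the dotted line marking equal values. The 52 genes that passed without sham replicate 2 are filled and have the same sign on both axes, and Serpina3n, labelled, passed in both fits.

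Serpina3n, a secreted serine protease inhibitor of the acute-phase response (ENSMUSG00000021091, chromosome 12, 104406729 to 104414329 of GRCm38), rose. It was at 30.3, 73.6 and 53.0 normalized counts in sham replicates 1 to 3 and 919, 1532 and 1220.4 at 2 weeks. All 3 ligated libraries stood far above all sham libraries, and this was the gene that passed both with sham replicate 2 (log2 fold change 4.58 ± 0.36 SE, limma, adjusted p = 0.0390) and without it (4.87 ± 0.30 SE, adjusted p = 0.00947). Its call in the fit of 6 libraries was lost when any 1 of the other 5 libraries was left out. Reads of the closely related Serpina3 copies may be shared with it, so its level is uncertain to that extent. The list of acute-phase proteins, which the liver releases in response to interleukin 6, had a median of 0.94 with sham replicate 2 and 1.23 without it, over 28 of 28 members tested. The median was 0.36 without sham replicate 1, which was lowest for 15 of the 28, and 0.50 without 2-week replicate 3. The medians over all genes tested were 0.06 and 0.01. Of the 28, 5 were higher and 2 lower at an unadjusted p below 0.05 with sham replicate 2, and 13 and 2 without it, where 8.18% of all genes were higher and 9.22% lower. Hamp, the iron hormone hepcidin, was at 3.67, 15.8 and 11.7 against 140.3, 48.3 and 115 (adjusted p = 0.0619 in limma). Itih3, a hyaluronan-binding plasma protein, was at 32.1, 199.8 and 82.6 against 338, 263 and 622 and Il6 at 799.6, 620.4 and 549 against 1395, 1000.1 and 1409, without passing. Hepatocyte markers also had medians above 0 in both fits. All 22 were tested, their median was 0.76 and 1.46, and their summed level was 3419.6, 23274 and 13495 normalized counts in sham and 18852, 8569 and 20672 at 2 weeks. Alb was at 707, 8406 and 4489 against 4566, 1981 and 5054. Sham replicate 1 was lowest of the 6 libraries for 20 of the 22, and without it the median was −0.52. The part of hepatocyte RNA in the acute-phase result was not tested.

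Most tested members of the monocyte list were higher at 2 weeks, but the markers that define classical monocytes did not show this. Chil3, a chitinase-like protein that myeloid cells secrete, was at 1.83, 0 and 0 normalized counts in sham replicates 1 to 3 and 76.6, 106 and 215 at 2 weeks. It passed (adjusted p = 0.0212 in limma) on 2 sham reads, both in replicate 1, and 610 reads of ligated mice. Against sham replicates 1 and 3 the ratio of its reads, each per total recovered reads, was 152, with a 95% exact interval of 41.9 to 1258. Itgam, the integrin CD11b of monocytes and neutrophils, was at 66.0, 68.3 and 45.2 normalized counts in sham replicates 1 to 3 and 412, 250.2 and 548 at 2 weeks. Every ligated library exceeded every sham library, and Itgam rose by a log2 fold change of 2.79 ± 0.34 SE (adjusted p = 0.0382), or 2.68 ± 0.33 SE with sham replicate 2. Ccr1, a receptor for inflammatory CC chemokines, was at 33.9, 10.5 and 24.1 against 141, 147 and 157, and F13a1, the A chain of clotting factor XIII, at 65.1, 110.4 and 27.3 against 306, 287 and 239. Both rose, by 2.33 ± 0.22 SE (adjusted p = 0.0212) and 2.68 ± 0.35 SE (adjusted p = 0.0424), with no overlap between groups; with sham replicate 2 the values were 2.79 ± 0.42 SE and 2.22 ± 0.47 SE. These 4 were the members of the monocyte list that passed. Of its 18 members 15 were tested, and the medians were 2.14 and 2.33. Higher at an unadjusted p below 0.05 were 10 with sham replicate 2 and 11 without it, against 4.70% and 8.18% of all genes. None was lower. The ligated libraries lay above all sham libraries in 8 of the 15 with sham replicate 2, where 10% of all genes did, and in 11 without it, where 18.3% did. The medians lay between 1.82 and 2.33 whichever 1 library was left out.

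Of the markers that define classical monocytes, Ccr2 did not rise against sham replicates 1 and 3, and Ly6c2 had too few reads to be tested. Ccr2 was at 29.3, 0 and 24.9 against 28.9, 25.5 and 21.0, with no read in sham replicate 2, and its log2 fold change without that library was −0.11. Ly6c2 was at 0, 0 and 0 against 1.77, 0.653 and 5.42 and was below the filter. The summed level of the monocyte list was 8548, 6724 and 7376 in sham and 12939, 8613 and 12030.0 at 2 weeks, and the part of monocyte RNA in the myeloid genes here and in the next paragraph was not tested. Reads of closely related copies may be shared for Chil3 and the Ms4a genes. Neutrophil genes were high mainly in 2-week replicate 3, where all 9 of the tested members of that list had their highest value. S100a8, a calcium-binding alarmin, was at 0, 10.5 and 0 against 8.84, 17.0 and 88.0, S100a9 at 0, 21.0 and 0 against 7.66, 6.53 and 185 and the neutrophil surface gene Ly6g at 0, 0 and 0 against 0.589, 0.653 and 0. None of the 9 passed, and the neutrophil median was 1.06 with sham replicate 2, 1.58 without it and 0.58 without 2-week replicate 3. Fewer cells of a type and less RNA per cell cannot be told apart in these bulk libraries, and this holds for every list below.

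Further genes of myeloid cells rose. Pla2g7, the secreted phospholipase that hydrolyses platelet-activating factor, was at 916, 731 and 651 normalized counts in sham replicates 1 to 3 and 3689, 2806 and 3993 at 2 weeks. Ms4a4a, a membrane protein of macrophages, was at 15.6, 31.5 and 33.5 against 156, 225 and 257, and the inhibitory receptor gene Cd300lf at 169.6, 284 and 159.7 against 663, 747 and 819. For each of these 3 the groups did not overlap, and each rose (log2 fold changes 2.16 ± 0.24 SE, 3.13 ± 0.36 SE and 2.16 ± 0.17 SE, adjusted p = 0.0334, 0.0334 and 0.0153 in limma). With sham replicate 2 the log2 fold changes were 2.19, 2.98 and 1.90. Gda, which deaminates guanine, rose from 61.4, 116 and 42.1 to 403, 418 and 643 (log2 fold change 3.20 ± 0.27 SE, adjusted p = 0.0188), again without overlap. The CC chemokine genes Ccl9 and Ccl6 of myeloid cells passed. Ccl9 was at 138, 268 and 155 against 1371, 901 and 839 and Ccl6 at 761, 994 and 529.6 against 3894, 2110.1 and 2741. Their log2 fold changes were 2.78 ± 0.24 SE and 2.15 ± 0.30 SE (adjusted p = 0.0188 and 0.0424), and all ligated libraries stood above all sham libraries. They were the 2 of 23 tested chemokine ligands that passed, and the median of that list was −0.39 and −0.04. Klhl6, Ms4a8a, Coro1a, which binds actin in leukocytes, and the C-type lectin gene Clec4d passed as well, with log2 fold changes of 1.45, 2.31, 2.13 and 2.13.

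All 22 members of the Kupffer cell list of resident macrophage genes were tested and none passed. With sham replicate 2, 11 lay above 0 and 11 below, and without it 17 lay above and 5 below. Without it 3 were higher and 0 lower at an unadjusted p below 0.05, against 8.18% and 9.22% of all genes. Sham replicate 2 was the highest of the 6 libraries for 14 of the 22, and the median was −0.03 with sham replicate 2 and 0.27 without it. Marco, a scavenger receptor that takes up bacteria, was at 1296, 3075 and 642 normalized counts in sham replicates 1 to 3 and 8642, 3258 and 12284 at 2 weeks, and Cd163, the haptoglobin-haemoglobin receptor, at 3239, 1651 and 1219 against 9703, 3383 and 5400.2. The groups did not overlap for these 2 genes, but neither passed (adjusted p = 0.0875 and 0.227). Clec4f, the lectin that defines Kupffer cells, was at 10027, 13769 and 6850.1 against 11879, 3428 and 3697, highest in sham replicate 2 and lowest in 2-week replicates 2 and 3. The summed level of the list was 60176, 93899 and 36861 in sham and 93545, 40818 and 64925 at 2 weeks, so the 2 groups overlapped. Ptprc, the pan-leukocyte gene CD45, was at 1796, 2056 and 1345 against 1918, 1109.9 and 1577. The lipid-laden macrophage list had medians of 0.38 and 0.13, with 12 of 18 above 0 and 6 below in both fits, and none passed. Gpnmb was at 908, 42.1 and 484 against 3326, 2990.0 and 1157 and Fabp5, a fatty acid carrier, at 127, 158 and 104 against 417, 278 and 263, both higher in every ligated library. Spp1, the matricellular protein osteopontin, was at 1152, 2050.3 and 1565 against 1139.8, 512 and 788, lower in every ligated library.

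Several matrix genes of fibroblasts passed as higher at 2 weeks. Col12a1, a collagen that decorates fibrils, was at 2.75, 42.1 and 2.34 normalized counts in sham replicates 1 to 3 and 133, 84.9 and 56.2 at 2 weeks, and Col6a1, a chain of microfibrillar collagen VI, at 8.25, 0 and 8.57 against 147, 50.3 and 83.3. Dcn, the small proteoglycan decorin, was at 37.6, 163 and 28.8 against 157, 128 and 127. These 3 passed, with log2 fold changes of 4.62 ± 0.41 SE, 3.19 ± 0.44 SE and 2.02 ± 0.22 SE (adjusted p = 0.0191, 0.0424 and 0.0303 in limma). Sham replicate 2 held 8 reads of Col12a1, none of Col6a1 and 31 of Dcn, and in Dcn it stood above all ligated libraries. Ccdc80, a secreted matrix protein, and Sparcl1, the matricellular protein hevin, were at 12.8, 68.3 and 12.5 against 117, 86.9 and 77.2 and at 1.83, 47.3 and 7.01 against 73.7, 54.2 and 66.3. Both passed, with log2 fold changes of 2.77 ± 0.27 SE and 3.78 ± 0.48 SE; with sham replicate 2 these were 1.99 and 2.66. Slit3, a secreted ligand of Robo receptors, was at 2.75, 10.5 and 4.67 against 71.3, 43.1 and 68.4 and rose by 3.71 ± 0.38 SE (adjusted p = 0.0252), with no overlap between the groups. Sfrp1, a secreted Wnt antagonist, was at 0.917, 21.0 and 0 against 102, 21.6 and 39.3 and passed (adjusted p = 0.0481). It had 1 read in sham replicates 1 and 3 together and 264 reads in the ligated libraries. Against sham replicates 1 and 3 the ratio per total recovered reads was 132, with a 95% exact interval of 23.4 to 5216. This ratio leaves out the 4 reads of sham replicate 2, whose level was close to that of 2-week replicate 2. With sham replicate 2 the log2 fold change of Sfrp1 was 3.70 (adjusted p = 0.394 in limma). Frem1 of basement membranes and Pcsk5, a proprotein convertase, also passed, by 2.15 and 2.67.

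Fibrillar collagen genes were higher in every ligated library than in any sham library without passing. Col1a1 was at 65.1, 294 and 27.3 normalized counts in sham replicates 1 to 3 and 1272, 334 and 598 at 2 weeks (log2 fold change 3.88 ± 0.58 SE, adjusted p = 0.0551), Col1a2 at 59.6, 68.3 and 12.5 against 741, 226 and 334 and Col5a1 at 23.8, 21.0 and 8.57 against 271, 90.2 and 106. The 3 were highest in 2-week replicate 1. With sham replicate 2 the log2 fold change of Col1a1 was 2.95 ± 0.86 SE (adjusted p = 0.347 in limma). Of 25 members of the stellate cell and fibroblast list 20 were tested, and the medians were 1.51 and 1.87. Of the 20, 9 were higher at an unadjusted p below 0.05 with sham replicate 2, against 4.70% of all genes. Without it 13 were, 2 of them passing, against 8.18% of all genes. Lrat, which stores retinol in quiescent stellate cells, was at 10.1, 21.0 and 12.5 against 10.02, 3.27 and 6.09. The summed level of the list was 7813, 2255 and 8698 in sham and 9880.1, 15083 and 13153 at 2 weeks, so that the groups did not overlap. A sum gives most weight to the members with the highest counts. The mean log2 level of the members was 4.48, 4.75 and 3.90 in sham and 6.26, 5.57 and 5.66 at 2 weeks. This mean was highest in 2-week replicate 1, where the sum was the lowest of the ligated libraries. The part of fibroblast and stellate cell RNA in the matrix genes was not tested. The broader list of collagens and matrix had 33 of 35 members tested and 3 passing, and its median was 0.87 with sham replicate 2 and 0.20 without it, where 11 of the 33 lay below 0. At an unadjusted p below 0.05, 10 were higher and 0 lower with sham replicate 2, and 12 higher and 4 lower without it. Over all genes 4.70% were higher and 4.99% lower with that library, and 8.18% and 9.22% without it. The 4 lower members, a share near that of all genes, were the basement membrane genes Hspg2, Nid2, Lama4 and Col18a1. They were named after their values were seen, and their log2 fold changes were −1.06, −0.85, −0.76 and −0.73. Outside the collagens, Mmp2, a gelatinase, was at 21.1, 10.5 and 17.9 against 156, 42.5 and 86.0, Postn, a matricellular protein, at 106, 42.1 and 68.5 against 194, 492 and 317, Adamts5, an aggrecanase, at 42.2, 5.26 and 42.8 against 151, 462 and 302, and Mmp13, a collagenase, at 257, 137 and 191 against 68.4, 14.4 and 12.9. None of these 4 passed; the first 3 were higher in every ligated library and Mmp13 was lower in every ligated library.

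**Figure D3:**
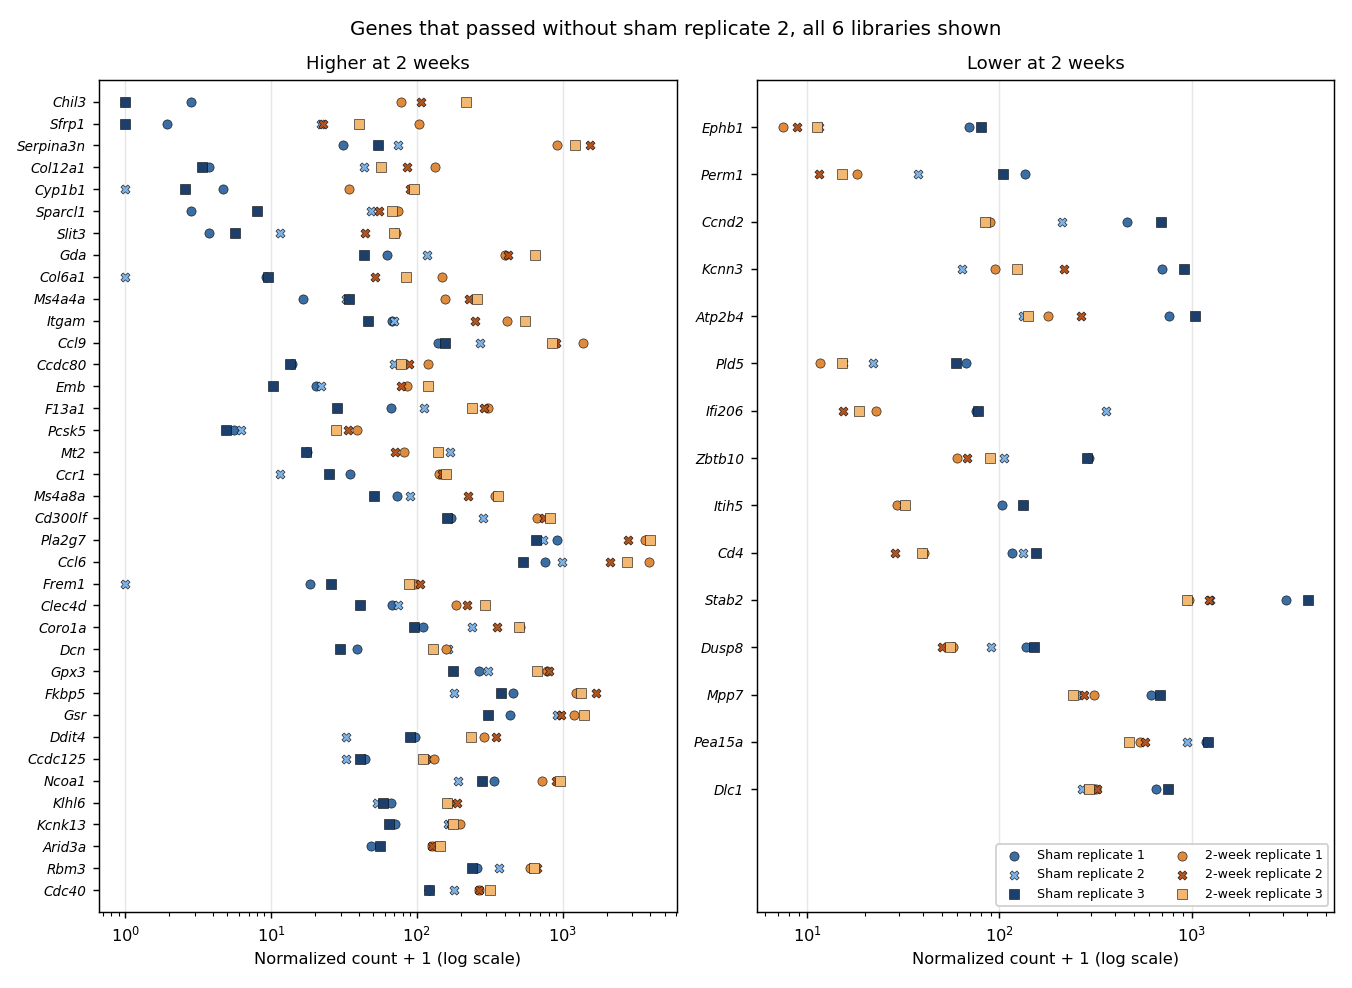
Normalized count + 1 (log axis) in each of the 6 libraries for the 37 genes higher (left) and the 15 genes lower (right) that passed without sham replicate 2, ordered by size of change. Sham replicate 2 (pale cross) lies above the ligated libraries for Dcn and Mt2 on the left, and below them for Atp2b4, Kcnn3 and Dlc1 on the right.

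The NRF2 and glutathione list had 2 of 27 members that passed. Gpx3, the extracellular glutathione peroxidase, was at 268, 305 and 175 normalized counts in sham replicates 1 to 3 and 774, 809 and 661 at 2 weeks and Gsr, glutathione reductase, at 432, 920.0 and 307 against 1192, 975 and 1407. They passed with log2 fold changes of 1.78 ± 0.22 SE and 1.69 ± 0.23 SE (adjusted p = 0.0403 and 0.0424 in limma), against 1.61 and 1.25 with sham replicate 2. The list's median was 0.07 and 0.30. Slc7a11, the cystine importer, was at 53.2, 26.3 and 35.8 against 149, 157 and 270.1 without passing (adjusted p = 0.0592). Fkbp5, a co-chaperone of the glucocorticoid receptor that glucocorticoids induce, was at 458, 179 and 377 normalized counts in sham replicates 1 to 3 and 1233, 1683 and 1325 at 2 weeks. Ddit4, an inhibitor of mTORC1 that responds to glucocorticoids and hypoxia, was at 96.3, 31.5 and 88.0 against 287, 346 and 236, and Ncoa1, a coactivator of nuclear receptors, at 339, 189 and 279 against 722, 897 and 958. All 3 were higher in every ligated library than in any sham library and rose by 1.75 ± 0.20 SE, 1.63 ± 0.21 SE and 1.47 ± 0.19 SE (adjusted p = 0.0334, 0.0423 and 0.0424), or 2.16, 2.13 and 1.70 with sham replicate 2. Cyp1b1, a cytochrome P450 that oxidizes oestrogens and xenobiotics, had 4, 0 and 2 reads in the sham libraries and stood at 33.0, 88.8 and 94.8 normalized counts at 2 weeks (adjusted p = 0.0423). Mt2, a metallothionein, was at 16.5, 168 and 16.4 against 80.2, 69.9 and 138, passed without sham replicate 2 (2.41 ± 0.33 SE), and was highest of all in that library. Rbm3, a cold-inducible RNA-binding protein, Cdc40, a splicing factor, Emb, which encodes embigin, Ccdc125, Arid3a and Kcnk13 completed the 37, with log2 fold changes of at most 2.68.

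Lower at 2 weeks were 15 genes. Itih5, a secreted hyaluronan-binding protein (ENSMUSG00000025780, chromosome 2, 10153571 to 10256529), was at 102, 131 and 132 normalized counts in sham replicates 1 to 3 and 28.3, 30.7 and 31.1 at 2 weeks. Ccnd2, the G1 cyclin D2, was at 462, 210.3 and 695 against 88.4, 83.0 and 82.6, and Perm1, a regulator of mitochondrial genes known from muscle, at 135, 36.8 and 103 against 17.1, 10.5 and 14.2. In these 3 all ligated libraries lay below all sham libraries, and they fell, with log2 fold changes of −1.91 ± 0.23 SE, −2.73 ± 0.21 SE and −3.02 ± 0.31 SE (adjusted p = 0.0357, 0.0153 and 0.0247 in limma). Cd4, the coreceptor of helper T cells that some myeloid cells also carry, was at 115, 131 and 154 against 39.5, 27.4 and 38.6 and fell (−1.91 ± 0.26 SE, adjusted p = 0.0424). The T cell and NK cell genes Cd3e and Nkg7 were at 0.917, 0 and 0 against 0, 1.96 and 1.35 and at 0 in all 6 libraries. The other tested member of the T and NK cell list, the IL-7 receptor gene Il7r, was at 6.42, 0 and 9.35 against 47.7, 28.1 and 30.5, higher in every ligated library without passing (adjusted p = 0.0852). Ephb1, an ephrin receptor, was at 68.8, 10.5 and 79.4 against 6.48, 7.84 and 10.2, and the calcium-activated potassium channel gene Kcnn3 at 699.7, 63.1 and 917 against 94.3, 216 and 122. Both fell against sham replicates 1 and 3 (log2 fold changes −3.05 ± 0.34 SE and −2.56 ± 0.34 SE), while sham replicate 2 lay next to the ligated libraries for Ephb1 and below them for Kcnn3. The calcium pump gene Atp2b4, Pld5, Zbtb10, the MAP kinase phosphatase gene Dusp8, Dlc1, the polarity scaffold gene Mpp7, and Pea15a, which holds ERK in the cytoplasm, also passed, with log2 fold changes between −2.24 and −1.17. Of the 15, 11 were also lower than all sham libraries with sham replicate 2 included.

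Genes that came closest to passing as lower with all 6 libraries included cytoskeletal and stress genes. Hspb1, the small heat shock protein HSP27, was at 215, 258 and 254 normalized counts in sham replicates 1 to 3 and 86.6, 47.7 and 50.1 at 2 weeks (adjusted p = 0.157 with sham replicate 2 and 0.0551 without it). Ankrd1, a nuclear ankyrin repeat protein and known target of YAP, was at 84.4, 137 and 133 against 14.7, 9.15 and 25.7 (adjusted p = 0.175 and 0.0655). Krt8, a keratin of simple epithelia, was at 601, 1088 and 799 against 269, 139.8 and 286, and Ank3, which anchors membrane proteins to spectrin, at 169.6, 131 and 126 against 57.8, 63.4 and 56.9. None of the 4 passed, and in all 4 the ligated libraries lay below all sham libraries. Egr1, Maff and Jund, transcription factors of the immediate early response, were likewise lower in every ligated library without passing (log2 fold changes −1.06, −0.93 and −0.64, or −0.86, −1.0 and −0.81 with sham replicate 2). Of the 27 genes of their list, 11 lay above 0 and 16 below in both fits, and the medians were −0.14 and −0.10.

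The values of sinusoidal and lymphatic endothelial genes depended on sham replicate 2. Stab2, a hyaluronan-clearing receptor of sinusoidal endothelium that lymphatic endothelium also carries (ENSMUSG00000035459, chromosome 10, 86841198 to 87008025), was at 3099, 1251 and 4047 normalized counts in sham replicates 1 to 3 and 970.1, 1237 and 945 at 2 weeks. It fell against sham replicates 1 and 3 (−1.76 ± 0.22 SE, adjusted p = 0.0382 in limma), and with sham replicate 2 the log2 fold change was −1.26 ± 0.43 SE (adjusted p = 0.408). Clec4g and Oit3, lectin-type and secreted markers of sinusoidal endothelium, were high only in sham replicate 2. Clec4g was at 8.25, 163 and 3.89 against 10.6, 9.80 and 10.2, and Oit3 was at 94.6 there and between 5.45 and 11.2 in the other 5 libraries. The sinusoidal list had 16 of 18 members tested and medians of −0.52 and −0.15. At an unadjusted p below 0.05, 2 were higher and 3 lower with sham replicate 2, and 2 higher and 5 lower without it. Over all genes 4.70% were higher and 4.99% lower with that library, and 8.18% and 9.22% without it. Ctsl, the protease cathepsin L, was at 828, 1246 and 736 against 1785, 1564 and 1795, higher in every ligated library without passing. Of 20 tested lymphatic identity genes none passed. Their median was 0.17 with sham replicate 2 and −0.53 without it. It was also below 0 without 2-week replicate 2 (−0.14), and it was 0.63 without sham replicate 3. Sham replicate 2 was the lowest library for 17 of the 20. At an unadjusted p below 0.05, 0 of the 20 were lower with it and 4 without it, where 4.99% and 9.22% of all genes were. Thy1, which lymphatic vessels carry, was at 650.2, 195 and 896 against 179.8, 357 and 270.1, and Reln, the secreted protein reelin, at 6274, 694 and 7373 against 4073, 12308 and 10019; the 2-week libraries lay below sham replicates 1 and 3 for Thy1 and on both sides of them for Reln. The summed level of the lymphatic list was 45123, 10867 and 57762 in sham and 23294, 58505 and 43469 at 2 weeks, so 2-week replicate 1 carried the least of the ligated libraries. The part of these levels in the endothelial results was not tested.

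Pan-endothelial genes gave a median of −0.28 with sham replicate 2 and −0.81 without it, over 21 of 22 members, none of which passed. The median was 0.05 without sham replicate 1, 0.27 without sham replicate 3 and 0.12 without 2-week replicate 1. Cdh5, the VE-cadherin of endothelial junctions, was at 4124, 3202 and 3634 normalized counts in sham replicates 1 to 3 and 3029, 3081 and 2798 at 2 weeks and Pecam1 at 1742, 668 and 1823 against 928, 1853 and 1377. Icam2, an adhesion molecule of resting endothelium, was at 141, 105 and 177 against 47.1, 56.8 and 32.5 and Clec14a, an endothelial lectin, at 70.6, 68.3 and 132 against 19.4, 58.1 and 25.0; the groups did not overlap for these 2, and neither passed (adjusted p = 0.0592 and 0.176). Vwf, the platelet-binding factor of vessel walls, was at 22.9, 63.1 and 35.0 against 106, 82.3 and 48.7. Of 20 junction genes, 4 were lower at an unadjusted p below 0.05 with sham replicate 2 and 11 without it, where 4.99% and 9.22% of all genes were, with medians of −0.37 and −0.57. The tight junction genes Ocln and Cgn were at 59.6, 63.1 and 65.4 against 21.8, 11.1 and 23.01 and at 94.5, 268 and 122 against 28.3, 20.9 and 66.3. Epithelial cells carry both genes as well, and the part of ductal RNA, whose markers are given below, was not tested. The VEGF, angiopoietin and Notch list had medians of −0.15 and −0.47 over 20 of 25 members. Its median lay above 0 without sham replicate 1 (0.17) or sham replicate 3 (0.31). The same held without 2-week replicate 1 (0.03) or 2-week replicate 3 (0.02). At an unadjusted p below 0.05, 1 member was lower with sham replicate 2 and 6 without it, against 4.99% and 9.22% of all genes. Angpt2, the TIE2 ligand of remodelling vessels, was at 356, 94.6 and 237 against 189, 525 and 598, Vegfa at 519.9, 321 and 415 against 679.5, 627 and 482 and Angpt1, the activating TIE2 ligand, at 17.4, 26.3 and 19.5 against 4.13, 3.27 and 10.2. None of the 3 passed, and Angpt1 was lower in every ligated library. Guidance genes had a median of −0.18 and −0.63 over 34 of 40 members, and Slit3 was the 1 that passed. At an unadjusted p below 0.05, 7 were lower with sham replicate 2 and 15 without it, against 4.99% and 9.22% of all genes.

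Genes of the type I interferon response had lower values at 2 weeks, and none of the list passed. Type I interferons signal through a complex of transcription factors, STAT2 and IRF9 among them, that binds the interferon-stimulated response element in the promoters of antiviral genes. Stat2 and the antiviral genes Bst2 and Isg15 were in the list of type I interferon genes, and the 3 promoters printed here are those of the members of both interferon lists with the lowest p in the fit of 6 libraries that hold the core of that element, GAAA followed by any 2 bases and GAAA, on either strand within the 250 bases before the start. Each is written 5′ to 3′ on the gene's strand, from RefSeq (GRCm38.p6), with matches, which may overlap, in capitals. Bst2, which encodes tetherin, a protein that holds budding viruses at the cell surface, is read from the minus strand at chr8:71537473-71537722. Isg15, a ubiquitin-like protein, is read from the minus strand at chr4:156200819-156201068, and Stat2 from the plus strand at chr10:128270248-128270497.
Bst2: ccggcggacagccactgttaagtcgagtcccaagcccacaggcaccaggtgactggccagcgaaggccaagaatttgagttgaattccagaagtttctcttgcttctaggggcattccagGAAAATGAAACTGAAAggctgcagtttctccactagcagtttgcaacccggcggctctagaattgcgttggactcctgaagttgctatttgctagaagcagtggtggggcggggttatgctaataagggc
Isg15: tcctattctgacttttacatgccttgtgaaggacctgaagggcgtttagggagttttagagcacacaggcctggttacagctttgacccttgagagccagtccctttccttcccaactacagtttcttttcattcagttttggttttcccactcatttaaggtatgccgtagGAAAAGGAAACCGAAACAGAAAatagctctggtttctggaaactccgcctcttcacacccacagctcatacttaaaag
Stat2: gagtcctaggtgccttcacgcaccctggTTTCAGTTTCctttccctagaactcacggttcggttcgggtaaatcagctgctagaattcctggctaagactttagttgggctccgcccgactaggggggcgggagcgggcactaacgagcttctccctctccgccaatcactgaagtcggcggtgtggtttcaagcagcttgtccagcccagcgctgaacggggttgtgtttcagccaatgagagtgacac
The core was in 9 of the 20 tested type I interferon genes that had a RefSeq promoter (45.0%) and in 12 of 16 interferon gamma genes (75.0%), against 317 of the 9320 tested genes with one (3.40%). A match describes the letters and is no evidence of binding.

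Stat2 was at 369.6, 704 and 493 normalized counts in sham replicates 1 to 3 and 238, 287 and 268 at 2 weeks, and Bst2 at 153, 289 and 203 against 103, 101 and 81.2. Isg15 was at 150.4, 836 and 215 against 78.4, 48.3 and 33.2, with the highest value in sham replicate 2. In these 3 genes every ligated library lay below every sham library. Their log2 fold changes were −0.93 ± 0.26 SE, −1.13 ± 0.28 SE and −2.56 ± 0.65 SE with sham replicate 2 and −0.69 ± 0.19 SE, −0.89 ± 0.21 SE and −1.82 ± 0.37 SE without it, where the adjusted p in limma was 0.155, 0.123 and 0.0931. All 28 tested members of the 30 in the list had log2 fold changes below 0 in both fits, where 55.0% (with sham replicate 2) and 51.0% (without it) of all genes lay above 0. Of the 28, 21 were lower at an unadjusted p below 0.05 with sham replicate 2 and 19 without it, where 4.99% and 9.22% of all genes were. In 24 the groups did not overlap with sham replicate 2, where 7.94% of all genes were lower in this way, and in 25 without it, where 17.9% were. The medians were −1.31 and −0.97, and lay in the range −1.64 to −0.97 with any 1 library left out. Ifi27l2a was at 89.0, 515 and 86.5 against 27.7, 17.6 and 12.2 and the RNA sensor gene Ddx58 at 259, 342 and 268 against 159, 133 and 115. Sham replicate 2 was the highest of the 6 libraries for 24 of the 28, and 2-week replicate 3 the lowest for 20. Ifi206, a member of the interferon-induced PYHIN family of DNA-sensing proteins, stood outside that list and passed. It was at 74.3, 357 and 76.3 against 21.8, 14.4 and 17.6 and fell (−2.03 ± 0.28 SE, adjusted p = 0.0424). Ifi213 of the same family was at 134, 142 and 146 against 51.9, 51.6 and 29.8 without passing. Reads of PYHIN copies may be shared.

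**Figure D4:**
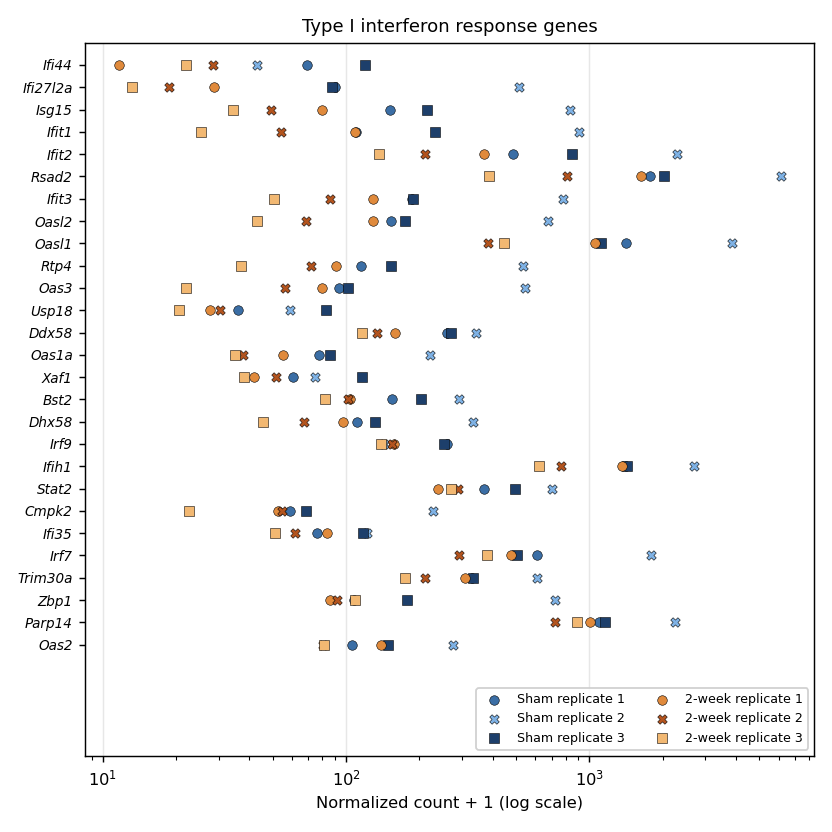
Normalized count + 1 (log axis) in each of the 6 libraries for 27 of the 28 tested type I interferon response genes, ordered by fold change without sham replicate 2. Ligated libraries (orange) lie to the left of sham libraries (blue) for 23 of these, and sham replicate 2 (pale cross) is the rightmost point for 23.

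Interferon gamma and antigen presentation genes had list medians below 0 in both fits, and none passed. Of 24 interferon gamma genes tested, 8 were lower at an unadjusted p below 0.05 with sham replicate 2 and 5 without it. Over all genes 4.99% and 9.22% were lower in this way. The medians of the list were −0.79 and −0.41. Ciita, the activator of MHC class II genes, was at 214, 284 and 306 normalized counts in sham replicates 1 to 3 and 144, 78.4 and 96.8 at 2 weeks. H2-Eb1, a chain of the class II molecule that presents peptides to helper T cells (ENSMUSG00000060586, chromosome 17, 34305867 to 34316674), was at 3674, 5609 and 3536 against 1141, 1476 and 1698, H2-Aa at 3615, 5115 and 3248 against 1376, 1617 and 1956 and H2-Ab1 at 5908, 10220.0 and 5624 against 2479, 2695 and 3554. In all 4 the groups did not overlap, and none passed (adjusted p from 0.0665 to 0.117 in limma). The class II list had medians of −0.96 and −0.63 over 13 of 17 members, and the class I list −0.63 and −0.36 over all 20. H2-Q6 and H2-Q7, class I genes so alike that reads may be split between them, were at 955, 952 and 956 against 282, 414 and 525 and at 671, 641 and 801 against 283, 314 and 452. Dendritic cell genes, which include class II presenting cells, had medians of −0.77 and −0.91 over 10 of 15 members, and their summed level was 1896, 2892 and 1988 in sham and 1489.9, 1278 and 1318 at 2 weeks. The part of dendritic cell RNA in the class II values was not tested. The B cell genes Cd79a and Ms4a1 were at 0, 0 and 2.34 against 1.18, 0.653 and 0.677 and at 0, 0 and 2.34 against 1.77, 0 and 0.677. Of the B cell list 4 of 15 members were tested, all 4 lay below 0 with sham replicate 2 and 3 without it, and 2 were lower at an unadjusted p below 0.05 in both fits. Cd22, an inhibitory receptor of B cells, was at 189, 142 and 169.8 against 141, 95.4 and 79.2 and Bank1, a B cell scaffold, at 304, 326 and 232 against 250.5, 79.7 and 77.8. The part of B cell RNA was not tested.

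Genes of bile duct epithelium had the lowest median of the 45 lists with at least 5 members tested, −1.40 with sham replicate 2 and −1.41 without it, over 18 of 18 members, none of which passed. The type I interferon list was lower without sham replicate 1 (−1.64 against −1.53), sham replicate 3 (−1.51 against −1.25) or 2-week replicate 2 (−1.33 against −1.05). Of the 18, 11 were lower at an unadjusted p below 0.05 with sham replicate 2 and 12 without it, where 4.99% and 9.22% of all genes were. Cldn7, a claudin of epithelial tight junctions, was at 28.4, 21.0 and 28.8 normalized counts in sham replicates 1 to 3 and 5.89, 3.27 and 6.77 at 2 weeks. Pkhd1, the fibrocystin of primary cilia, was at 348, 284 and 491 against 80.7, 18.9 and 140.1, and Cdh1, the E-cadherin of epithelia, at 304, 326 and 462 against 125, 45.1 and 175. For these 3 the groups did not overlap, and adjusted p was 0.0993, 0.152 and 0.158 in limma. Among the defining markers, Epcam was at 121, 68.3 and 107 against 40.7, 15.7 and 48.1, Krt19 at 43.1, 142 and 143 against 36.5, 22.9 and 68.4 and Krt7 at 14.7, 15.8 and 22.6 against 27.7, 26.1 and 32.5, so that Krt7 lay higher in every ligated library and Epcam lower. The lowest value was in 2-week replicate 2 for 15 of the 18. The summed level of the list was 7532, 4968 and 10359 in sham and 2691, 3459.7 and 4168 at 2 weeks. The part of the number of ductal cells in these values was not tested.

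Medians of the cholesterol, glycolysis and bile acid lists lay between −0.66 and 0.31 in both fits, and no member of these lists passed. Cholesterol genes had medians of −0.52 and −0.66. At an unadjusted p below 0.05, 8 of 27 were lower with sham replicate 2 and 9 without it, against 4.99% and 9.22% of all genes. Srebf2, the transcription factor that drives cholesterol synthesis, was at 474, 415 and 429.9 against 189, 204 and 293, without overlap between groups. Glycolysis and hypoxia genes had medians of 0.27 and 0.31. At that p, 5 of 27 were higher with sham replicate 2 and 10 without it, against 4.70% and 8.18% of all genes. Slc16a3, the lactate exporter MCT4, was at 33.9, 36.8 and 28.8 against 77.2, 84.9 and 119 and Hif1a at 465, 473 and 463 against 635, 665 and 705, both higher in every ligated library. Of the bile acid list, 16 of 23 members were tested. Slco1a1, a hepatocyte uptake carrier, was at 6.42, 42.1 and 30.4 against 0.589, 0 and 0, and Fgfr4, the hepatocyte receptor of the bile acid hormone FGF15, at 27.5, 36.8 and 33.5 against 5.30, 3.92 and 12.9; neither passed. Unfolded protein response genes had medians of −0.50 and −0.42, and proliferation genes −0.27 and −0.10. Mki67, a marker of cycling cells, was at 760.2, 641 and 435 against 1022, 736 and 1188, and Ccnd1, the gene of cyclin D1, at 322, 279 and 413 against 178, 171 and 95.4.

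**Figure D5:**
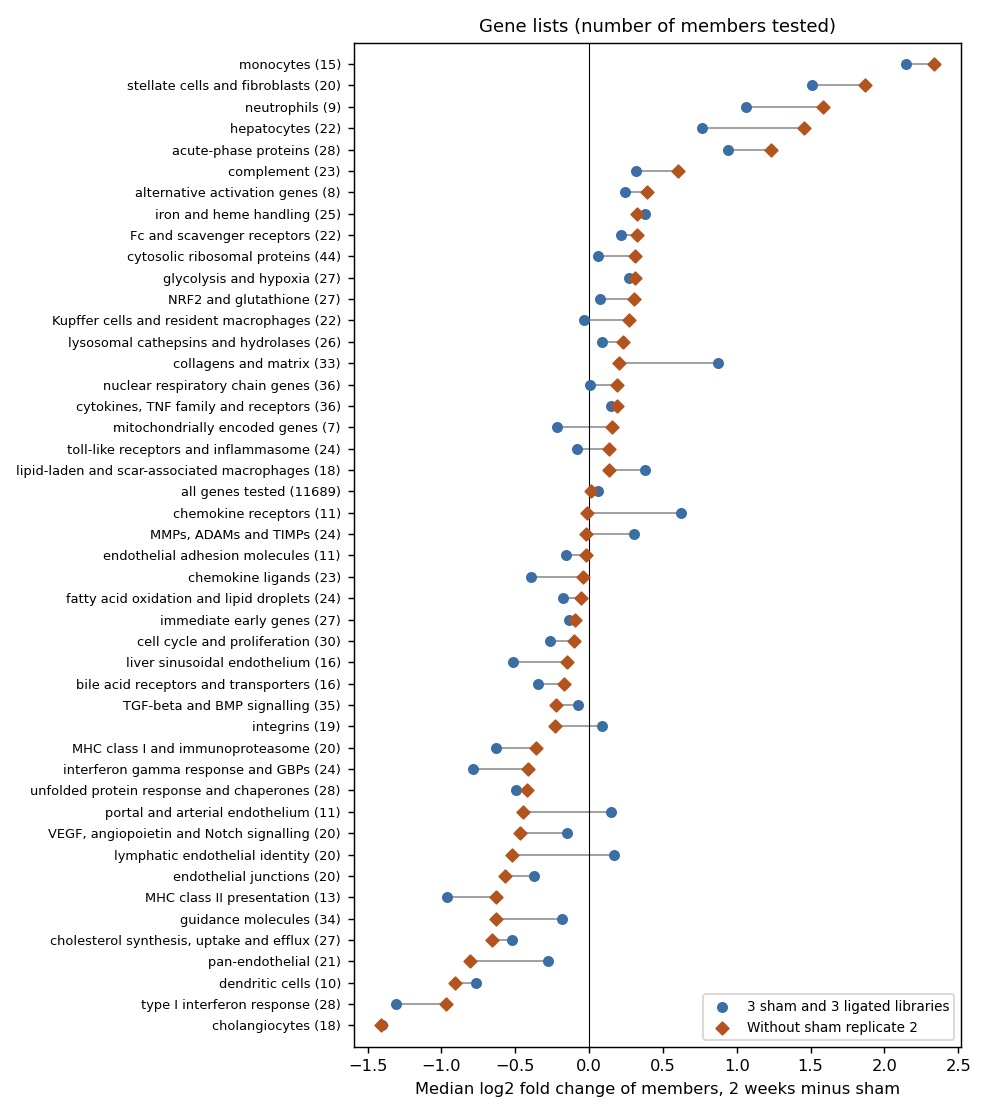
Median log2 fold change of the members tested in each gene list with at least 5 of them, with all 6 libraries (circles) and without sham replicate 2 (diamonds), beside the median over all genes tested. Monocyte, fibroblast and neutrophil lists lie highest and cholangiocyte and type I interferon lists lowest in the fit without sham replicate 2, and the lymphatic identity list changes side of 0.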

How the data were processed

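Ribosomal RNA-depleted total RNA was sequenced from 9 libraries, of which the 3 sham libraries and the 3 at 2 weeks were used. The deposited signal values are normalized counts, which the values themselves show to be each library's gene counts divided by 1 factor. Dividing by the smallest step of each library gave whole reads for 100.0% of 197424 values within 0.001. The submitters' processing notes list HISAT2 2.1.0 and StringTie 1.3.3b, Trim Galore 0.5.0, the build mm10 and DESeq2 1.22.1. The sources used here do not state their order, settings or use of strand, so reads of antisense or overlapping genes cannot be told apart. Low values in sham replicate 2, the library with the fewest reads, are the least precise.

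Genes with a mean of at least 10 over the 6 libraries were tested (10247 were below) on the log2(normalized count + 1) scale with limma-trend 3.58.1 (R 4.3.3), sham against 2 weeks, adjusted over all genes tested. The same fit was run without sham replicate 2. edgeR 4.0.16 (quasi-likelihood) and DESeq2 1.42.0 on the recovered reads were alternatives, as were other pseudocounts, filters and scalings, library weights, a replicate block, all libraries of the series and leaving out each library. All tests were two-sided, and the code was tested on simulated data. Coordinates are from the GRCm38 annotation GENCODE M21, the assembly of mm10. The promoter window was the 250 bases before the start, shorter than planned, since bases after it are untranslated sequence. Replicate libraries differed beyond sampling noise (chi-square per degree of freedom 11.9 to 30.8), so each counted as 1 sample.

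Named genes were up to 12 per direction from the fit of 6 libraries (those that passed, then lowest p), up to 8 per direction that passed without sham replicate 2, up to 4 members with the lowest p in each list, and fixed markers. The other genes that passed without sham replicate 2 were named after their values were seen, as were Isg15 and Stat2, named for their promoters. A few genes that the rule named are not reported here. The members and lists were chosen with earlier results of these data known.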

Additional observations from a re-analysis of the deposited data

How the results depend on the processing

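The count of 1 gene with all 6 libraries became 53 without a filter on low values, 2 with quantile normalization, 2 in the fit of all libraries of the series, 324 with DESeq2 and 700 with library quality weights. Leaving out 1 library gave 0 to 52 genes, 52 without sham replicate 2 and 0 without each of the others. The count of 52 genes without sham replicate 2 became 0 with a filter at a mean of 1, 15 with edgeR, 585 with DESeq2 and 96 with quality weights. It became 10 in the fit of all libraries, and 4 to 158 with a further ligated library left out. Without a filter it was 62, of which 3 were among the 52. The cause of these differences was not tested. Apart from the replicate block, the other alternatives kept both counts within 1.5 times.

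A replicate block gave 0 genes with all 6 libraries and 1018 without sham replicate 2. Same-numbered libraries did not deviate together (correlations of deviations −0.26, −0.45 and 0.00 for replicates 1, 2 and 3, with 0.38 between sham replicate 1 and 2-week replicate 2), and not every library correlated best with its own number, so the numbers were not taken as pairs.

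Over the genes that passed, 493 of 894 alternative values kept direction and side of the threshold, 401 kept direction but no longer passed, and 0 reversed. The alternatives share most of their libraries with the fit in which the genes were chosen, so a reversal was unlikely in advance. Of 45 lists with at least 5 members tested, 22 medians lay above 0 with all libraries. The alternatives run for lists were leaving out each library, TMM scaling and quantile normalization. Under all of these 28 lists kept their sign, and 8 changed it without sham replicate 2. Sham replicate 2 limits every value: a count of 0 reads in it allows a level of up to 15.8 normalized counts. Few replicates limit the tests.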

Other observations

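Cytosolic ribosomal protein genes had a median log2 fold change of 0.06 with sham replicate 2 and 0.31 without it. With that library 28 of the 44 lay above 0, 0 were higher at an unadjusted p below 0.05 and in 1 the groups did not overlap. Without it 42 lay above 0, 13 were higher at that p and in 31 the groups did not overlap in the higher direction, as for 18.3% of all genes. Sham replicate 2 was highest and sham replicate 3 lowest for 41 each, and none of the 44 passed in limma. Nuclear respiratory chain genes had medians of 0.01 and 0.19 over 36 genes, with 1 higher and 1 lower without overlap with sham replicate 2, and 18 higher and 1 lower without it (18.3% and 17.9% of all genes). Complement genes had medians of 0.32 and 0.60 over 23 members. Integrin genes had medians of 0.09 and −0.23 over 19 members, of which Itgam passed. The TGF-beta and BMP list had medians of −0.07 and −0.22 over 35 members, with 3 higher and 5 lower at an unadjusted p below 0.05 with sham replicate 2, and 6 higher and 10 lower without it (8.18% and 9.22% of all genes). The mesothelial list had 3 of 11 members tested, and the erythroid and platelet list 2 of 16. Pf4, a platelet and macrophage chemokine, was at 58.7, 5.26 and 25.7 against 124, 76.4 and 108 and Hbb-bs, a beta globin, at 1.83, 5.26 and 0 against 1.77, 4.57 and 5.42.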
